A study of Mus musculus with 5 samples.

Results

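Nppb encodes the precursor of B-type natriuretic peptide, and the genes described here are Nppb and the 3 natriuretic peptide receptor genes Npr1, Npr2 and Npr3. They were taken by symbol, with every probe set annotated to that single symbol, which gave 6 probe sets of the 45101 on the array and 4 genes of the 18193 named. Nppb, Npr1 and Npr2 had 1 probe set each and Npr3 had 3. Nppb was chosen with its values on these same arrays in view, so they are given as a description and carry no test. The receptors were taken along by their role.

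RNA was measured in the mouse skin carcinoma line B9 (cutaneous squamous cell carcinoma), and cells of all groups carry HRAS-Q61L, an activating change in a RAS protein. The groups were cells kept for 17 h with 1 µM PLX4032 (vemurafenib, a BRAF inhibitor known to increase ERK activity where RAS is active; 2 arrays), with 1 µM PLX7904 (a BRAF inhibitor designed to avoid this; 2 arrays) or with DMSO vehicle (1 array). The labels state 0.2% DMSO for the vehicle group, while the stock volume they give for the compounds amounts to a smaller share. The labels call the arrays biological replicates of 1 line without further detail, so errors measure the spread between these arrays, and the DMSO group, with its single array, was given the spread of the treated groups.

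Natriuretic peptides are small secreted hormones cut from larger precursors. A-type and B-type peptide bind Npr1, and C-type peptide binds Npr2; both receptors make cyclic GMP, which acts through cyclic GMP-dependent kinases, gated channels and phosphodiesterases. Npr3 lacks the cyclase and takes the peptides up for breakdown. Nppb and its neighbour Nppa are best known from heart muscle, where they are induced by stretch and growth stimuli. All 8 keratinocyte markers measured (such as Krt5, Krt14 and Trp63) passed the signal filter used below, as did 10852 of all 18193 genes. These markers were bright, from 2376 (Sfn) to 25758 (Krt6a) over the 5 arrays. Of 8 heart muscle markers 2 passed, Tnnt2 (cardiac troponin T, 4119 to 4947 over the 5 arrays) and Mybpc3, while Myh6, Myh7, Tnni3, Actc1, Ryr2 and Nkx2-5 did not. Past the filter were also 1 of 6 fibroblast, 1 of 5 endothelial, 2 of 6 immune and 2 of 6 melanocyte markers.

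Nppb and Nppa lie next to each other on mouse chromosome 4, and the 250 bases before the start of each gene in the RefSeq promoter table (GRCm38.p6, plus strand) are shown because one gene of the pair was bright and differed between the arrays and the other was dim. The Nppb stretch is chr4:147985650-147985899 and the Nppa stretch chr4:148000472-148000721. Capitals mark matches, on either strand, to the TATA box (letters TATAAA), the GATA site (letters GATAA), the M-CAT element (letters CATTCC) and the CACCC box, named for its letters. The AP-1 site (letters TGANTCA), the CRE (letters TGACGTCA) and the CArG box were also searched and had 0 matches in either stretch.
Nppb: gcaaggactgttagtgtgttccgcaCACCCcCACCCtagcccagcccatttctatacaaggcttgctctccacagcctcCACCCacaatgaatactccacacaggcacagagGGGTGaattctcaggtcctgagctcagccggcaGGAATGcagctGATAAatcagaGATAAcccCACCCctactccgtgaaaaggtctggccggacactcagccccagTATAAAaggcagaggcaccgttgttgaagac
Nppa: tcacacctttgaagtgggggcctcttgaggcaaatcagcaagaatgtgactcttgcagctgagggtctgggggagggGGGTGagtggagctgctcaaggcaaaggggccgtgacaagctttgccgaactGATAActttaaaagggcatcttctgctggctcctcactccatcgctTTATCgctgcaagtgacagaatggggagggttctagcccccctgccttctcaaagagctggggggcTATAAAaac
The Nppb stretch held 1 TATA box beginning 31 bases before the start, 2 GATA sites (94 and 83 bases before it), 1 M-CAT element (105 bases before it) and 5 CACCC boxes. The Nppa stretch held 1 TATA box, 2 GATA sites, 1 CACCC box and 0 M-CAT elements. Of all 32851 stretches of this length in the table, 12.4% held a TATA box, 22.6% a GATA site, 12.6% an M-CAT element, 52% a CACCC box, 6.75% an AP-1 site, 1.55% a CRE and 1.47% a CArG box. The RefSeq record of Nppb also begins inside the stretch shown, upstream of the start used by the table. These matches describe the letters only, and no binding was measured.

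Nppb was bright on every array. Its MAS5 signal, an intensity on a linear scale, was 2520 with DMSO, 10581 and 10318 with vemurafenib, and 3150 and 3310 with PLX7904. Both vemurafenib arrays were thus far above the other 3, and the 2 compounds' arrays did not overlap. The replicate arrays lay close together, with a mean of 10450 ± 186 (SD, n = 2) for vemurafenib and 3230 ± 113 (SD, n = 2) for PLX7904.

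On the log2(signal + pseudocount) scale Nppb was 2.05 higher with vemurafenib than with DMSO (SE 0.08), a 4.14-fold difference. Vemurafenib exceeded PLX7904, at the same dose and time, by 1.69 (SE 0.07), or 3.23-fold. PLX7904 exceeded DMSO by 0.36 (SE 0.08), or 1.28-fold. The order of the levels was therefore vemurafenib, PLX7904, DMSO. The step between PLX7904 and DMSO was the small one, larger than the spread between the 2 PLX7904 arrays, but the DMSO level rests on 1 array whose own spread is unknown.

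Among the 10852 genes that passed the filter, 10 had a higher signed log2 difference than Nppb between vemurafenib and DMSO. The counts were 12 between vemurafenib and PLX7904 and 401 between PLX7904 and DMSO. Genes that fell by more than Nppb rose are not in these counts. For reading these places, 10.6% of genes passed an adjusted p under 0.05 in limma between vemurafenib and DMSO (5.43% higher and 5.21% lower), 13.3% between the compounds (6.43% higher and 6.87% lower with vemurafenib) and 0% between PLX7904 and DMSO, where 722 genes (6.65%) had an unadjusted p under 0.05. In 19.2% of genes both vemurafenib arrays were above the other 3. Nothing is read from these shares for Nppb, since it was chosen on the vemurafenib arrays.

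Nppb kept its direction under other scalings of the arrays, though it moved by more than the spread between replicates (SD 0.04). Its difference between vemurafenib and DMSO was 2.008 after quantile normalization, 1.995 after cyclic loess and 2.2 with median centring, and it ranged from 2.032 to 2.068 when each treated array was left out in turn. In bulk RNA, more cells that express Nppb and more Nppb RNA per cell cannot be told apart. The summed signal of the 8 keratinocyte markers was 105540 with DMSO, 114162 to 114637 with vemurafenib and 109438 to 113848 with PLX7904. That of the 8 heart muscle markers, nearly all of it Tnnt2, was 4502, 4927 to 5164 and 4319 to 4663 in the same order, while Tnni3, a troponin restricted to heart, read 1.11 to 2.59 on all arrays. The 6 fibroblast markers summed to 164, 373 to 402 and 195 to 246, and of these Pdgfra alone passed the filter. Endothelial (191, 63.9 to 152, 107 to 212) and melanocyte markers (155, 205 to 251, 213 to 330) were low in sum. Immune markers summed to 689, 781 to 784 and 793 to 801, most of it Cd14 (562.4 to 620.5 over the 5 arrays). Of all these markers Itga6 (log2 0.48), Sfn (0.63), Pdgfra (1.53) and the melanosome gene Pmel (2.48) passed as higher with vemurafenib than with DMSO. Over all genes tested 5.43% did. Between the compounds Itga6 (0.37), Sfn (0.71) and Pdgfra (0.86) passed as higher with vemurafenib, where 6.43% of all genes did. Krt5 passed as lower there (log2 -0.23, adjusted p = 0.0175 in limma), where 6.87% of all genes did. Pmel read 12.4 with DMSO, 85.5 and 82.8 with vemurafenib, and 72.2 and 60.8 with PLX7904. The DMSO array thus stood apart from both compounds, which differed by 0.33 on the log2 scale (adjusted p = 0.639 in limma). The mean signal of Pmel was 54.3, just above the filter. Its DMSO reading alone lay below the filter, so Pmel entered the test through the compound arrays. The Pmel call against DMSO rests on that single dim reading. Whether the marker calls hold under other processing was not examined. The part of these markers in the Nppb difference was not tested.

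**Figure D1:**
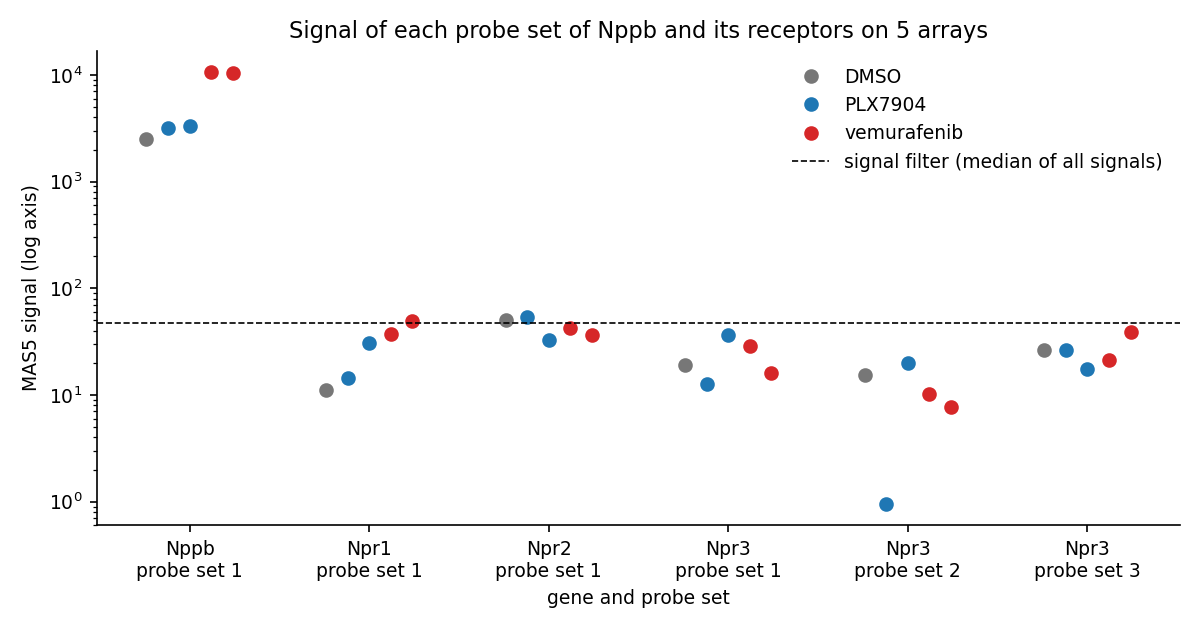
MAS5 signal (log axis) of the 6 probe sets of Nppb, Npr1, Npr2 and Npr3, with 1 point per array and colours for DMSO, PLX7904 and vemurafenib; the dashed line is the signal filter of 47.4. Nppb lies between 2520 and 10581, with both vemurafenib arrays on top, and the receptor probe sets lie near or below the dashed line.

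**Figure D2:**
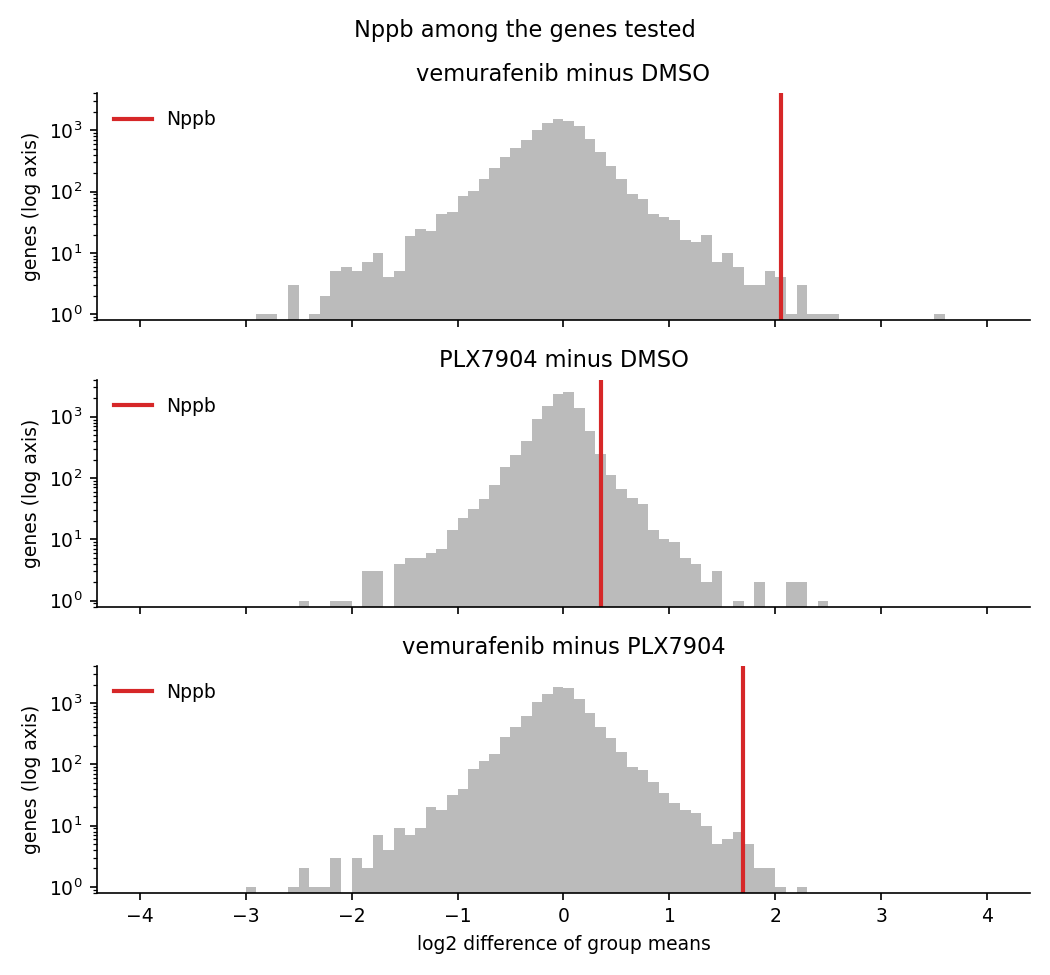
Number of genes (log axis) by log2 difference of group means for the 10852 genes that passed the filter, in each of the 3 comparisons, with Nppb as a red line. Nppb sits at 2.05, 0.36 and 1.69 from top to bottom, in the right tail of the top and bottom panels.

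The receptors were dim on all arrays. None of the 3 genes passed the filter of a mean signal of 47.4, so 1 of the 4 genes entered the test, and a dim MAS5 signal does not say whether a transcript was present. Npr1, the receptor of B-type peptide, read 11.1 with DMSO, 37.2 and 49.4 with vemurafenib, and 14.4 and 30.9 with PLX7904. Its vemurafenib arrays were above the other 3, as in 19.2% of the genes tested, though the upper PLX7904 array came near them. The log2 difference between vemurafenib and DMSO was 1.68 with an SE of 0.72, and that between vemurafenib and PLX7904 was 0.91 (SE 0.59).

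Npr2, the receptor of C-type peptide, read 50.2 with DMSO, 42.9 and 36.5 with vemurafenib, and 54.1 and 32.5 with PLX7904. The PLX7904 arrays spanned all the others. Its log2 differences were -0.32 (SE 0.58) for vemurafenib and -0.24 (SE 0.58) for PLX7904 against DMSO.

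Npr3, the clearance receptor, had 3 probe sets, and none separated the groups. The brightest read 26.6 with DMSO, 21.3 and 38.9 with vemurafenib, and 26.7 and 17.4 with PLX7904. The other two read 19.1 and 15.3 with DMSO, and their PLX7904 arrays differed from each other most, at 12.6 against 36.7 in one and 0.955 against 19.8 in the other. For the brightest probe set the log2 difference was 0.11 (SE 0.71) for vemurafenib and -0.26 (SE 0.71) for PLX7904 against DMSO.

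Fitted without the filter, 0 of the 3 receptors passed in limma in any comparison, and 1, Npr1 between vemurafenib and DMSO, had an unadjusted p under 0.05 (adjusted p = 0.290), as 16.9% of all genes did in that comparison. In that fit 3.61% of all genes passed between vemurafenib and DMSO, 5.38% between the compounds and 0% between PLX7904 and DMSO. The 95% intervals between the compounds were wide, from -0.45 to 2.27 on the log2 scale for Npr1, -1.18 to 1.02 for Npr2 and -0.97 to 1.71 for Npr3. Each interval included 0, and the arrays do not narrow the receptor differences further than these intervals.

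The other ligands were dim as well. Nppa, the A-type precursor, read 25.9 with DMSO, 48.5 and 54.0 with vemurafenib, and 37.3 and 33.6 with PLX7904. Nppc, the C-type precursor, read 24.6, then 34.4 and 22.9, then 11.1 and 9.52 in the same order. Both were below the filter, with log2 differences between vemurafenib and DMSO of 0.90 (SE 0.57) for Nppa and 0.17 (SE 0.72) for Nppc. Nppb was thus the one ligand of the 3 measured that passed the filter.

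The 10 nearest genes with a usable probe set, 5 on either side of Nppb, were compared to see whether the stretch of chromosome moved with it. Of these, 7 passed the filter and 0 passed the test in any comparison, where 10.6% of all genes passed between vemurafenib and DMSO and 13.3% between the compounds. With 7 genes, a count of 0 is near these shares. Their log2 differences between vemurafenib and DMSO ran from -0.56 to -0.07, with a median of -0.13, against a median of -0.05 over all genes tested. The gene before Nppb, 2510039O18Rik, read 2840 with DMSO, 2489 and 2720 with vemurafenib, and 2998 and 2895 with PLX7904. Clcn6, a chloride transporter gene just beyond Nppa, read 151, then 155 and 133, then 141 and 131. Mfn2, a mitochondrial fusion protein gene, read 940, then 843 and 847, then 874 and 757. Between the compounds the 7 genes ran from -0.51 to 0.07. Below the filter were Nppa, Draxin and Fv1, a retrovirus restriction gene. Fv1 read 3.40 with DMSO, 28.7 and 25.7 with vemurafenib, and 9.59 and 20.3 with PLX7904. This put vemurafenib above DMSO by 2.18 on the log2 scale (95% interval 0.40 to 3.96). That interval is unadjusted and rests on a single, very dim DMSO reading. In the limma fit without the filter 16.9% of all genes had an unadjusted p under 0.05 in that comparison. Draxin read 47.6, then 20.8 and 24.1, then 21.8 and 24.7 (log2 -0.98, 95% interval -2.47 to 0.51).

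**Figure D3:**
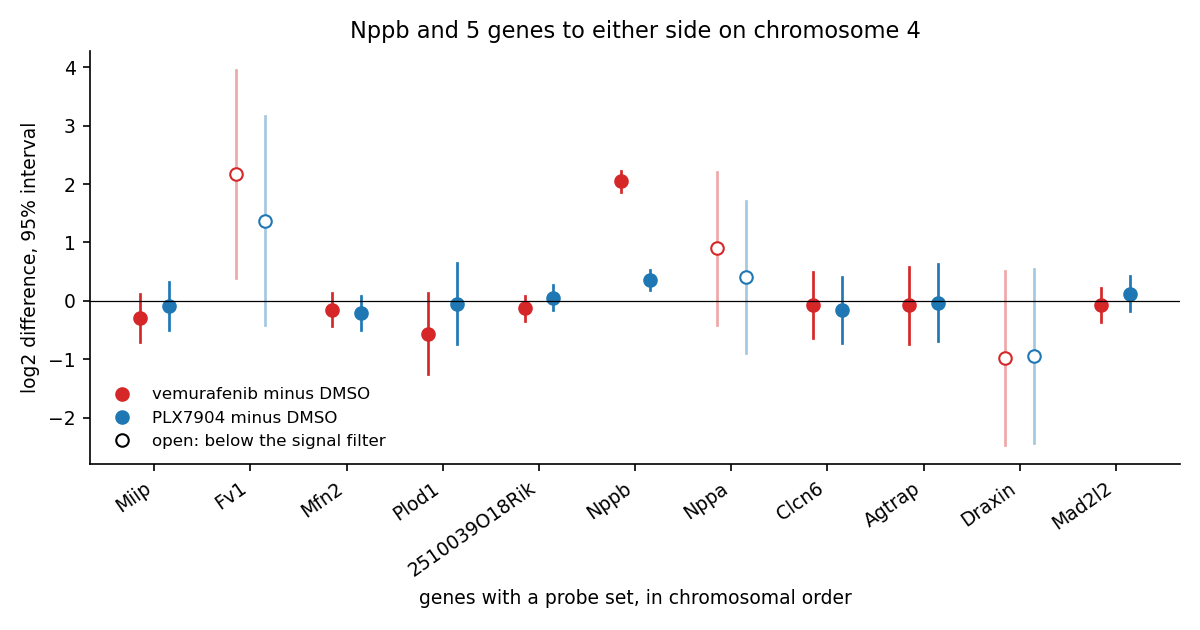
Log2 difference from DMSO with its 95% interval for Nppb and 5 genes to either side in chromosomal order, for vemurafenib (red) and PLX7904 (blue); open points are genes below the signal filter. Nppb stands at 2.05 and 0.36, and the 7 neighbours above the filter lie between -0.56 and 0.12.

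The enzymes that cut and degrade natriuretic peptides were compared next. Of 7 genes, 3 passed the filter. Between vemurafenib and DMSO 0 of the 3 passed, at a median log2 difference of -0.18. Between the compounds all 3 passed, 1 higher and 2 lower with vemurafenib, where 13.3% of all genes did.

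Furin, a protease that cleaves the Nppb precursor, read 572 with DMSO, 702 and 759 with vemurafenib, and 489 and 542 with PLX7904. It was 1.42-fold higher with vemurafenib than with PLX7904 (95% interval 1.19 to 1.68, adjusted p = 0.0150). Both vemurafenib arrays exceeded the other 3, as in 19.2% of the genes tested. Pcsk6, the protease that activates corin, read 301, then 175 and 230, then 318 and 312. It was 1.56 times lower with vemurafenib than with PLX7904 (log2 -0.64, SE 0.17, adjusted p = 0.0298). Ide, insulin-degrading enzyme, which also cleaves natriuretic peptides, read 2343, then 1981 and 2172, then 2429 and 2805, and was 1.26 times lower with vemurafenib than with PLX7904 (log2 -0.33, SE 0.09, adjusted p = 0.0395). Against DMSO the log2 differences with vemurafenib were 0.35 for Furin, -0.58 for Pcsk6 and -0.18 for Ide, and none passed (adjusted p = 0.137, 0.105 and 0.364).

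These calls were close to the threshold. Those of Pcsk6 and Ide ended without the filter (adjusted p = 0.0926 and 0.0790), with median centring (0.0706 and 0.315) and with the mean of all probe sets of each gene (0.0735 and 0.671), and the other 4 probe sets of Ide read -0.14 to 0.00 between the compounds. Leaving out 1 array ended the call of Furin (vemurafenib replicate 2, adjusted p = 0.0667; PLX7904 replicate 1, 0.0606), of Pcsk6 (vemurafenib replicate 1, 0.182; PLX7904 replicate 1, 0.10; PLX7904 replicate 2, 0.0966) and of Ide (vemurafenib replicate 1, 0.222; PLX7904 replicate 2, 0.156). Against DMSO, Pcsk6 passed as lower without vemurafenib replicate 2 (log2 -0.767, adjusted p = 0.0294). Corin, the convertase of the heart, and the peptidases Mme, Dpp4 and Mep1b were below the filter, with signals of 1.03 to 36.5 over all arrays.

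Genes that make, break down, export or respond to cyclic GMP gave 7 calls over the 3 comparisons, all of which ended without limma's variance trend. Of 24 measured, 10 passed the filter. With vemurafenib 3 rose against DMSO and 0 fell, where 5.43% of all genes tested rose and 5.21% fell, at a median log2 difference of -0.01 for the 10 genes. Between the compounds 4 were higher with vemurafenib and 0 lower, where 6.43% of all genes were higher and 6.87% lower, at a median of 0.22. The medians over all genes tested were -0.05 and -0.04. With PLX7904 0 of the 10 passed against DMSO.

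Prkg2, the membrane-bound cyclic GMP-dependent kinase, read 7915 with DMSO, 13682 and 13518 with vemurafenib, and 8974 and 9430 with PLX7904. Both vemurafenib arrays lay above the other 3, as in 19.2% of the genes tested. It rose 1.72-fold with vemurafenib against DMSO (95% interval 1.54 to 1.91, adjusted p = 1.15e-04) and was 1.48-fold higher than with PLX7904 (1.35 to 1.61, adjusted p = 2.06e-04). PLX7904 exceeded DMSO by 0.22 on the log2 scale (adjusted p = 0.543). A further bright probe set of Prkg2 gave 0.90 between vemurafenib and DMSO and 0.53 between the compounds, while a dim one (mean signal 219) gave 0.58 and -0.22. With the mean of the 3 probe sets the call between the compounds ended (log2 0.289, adjusted p = 0.251). Prkg1, the soluble kinase, was below the filter at 24.4 to 44.0.

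Vasp, an actin regulator that cyclic nucleotide-dependent kinases phosphorylate, read 1473, then 2039 and 1964, then 1546 and 1410. It rose 1.36-fold against DMSO (95% interval 1.15 to 1.60, adjusted p = 0.0251) and was 1.36-fold higher than with PLX7904 (adjusted p = 0.00838). The call against DMSO ended without vemurafenib replicate 1 (adjusted p = 0.0924). Abcc4, a transporter that exports cyclic nucleotides, read 1119, then 1506 and 1831, then 1111 and 1350. It has 1 probe set, so the mean of all probe sets changed only its variance and the adjustment, not its log2 difference. It rose 1.48-fold against DMSO (1.18 to 1.86, adjusted p = 0.0373), a call that ended without vemurafenib replicate 2 (log2 0.427, adjusted p = 0.0930), without the filter (0.0902) or with the mean of all probe sets (0.0993). Between the compounds it was 1.36-fold higher with vemurafenib (adjusted p = 0.0386), which ended under the same 3 settings and without PLX7904 replicate 1 (0.195 without vemurafenib replicate 2, 0.164 without PLX7904 replicate 1).

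Rgs2, a regulator of G protein signalling that cyclic GMP-dependent kinase activates, read 739, then 937 and 1109, then 730 and 619. It was 1.52-fold higher with vemurafenib than with PLX7904 (95% interval 1.26 to 1.82, adjusted p = 0.00960), a call that ended without PLX7904 replicate 2 (adjusted p = 0.0528) and with the mean of all probe sets (0.0885). Against DMSO its 1.38-fold difference did not pass (adjusted p = 0.0751), though it did with median centring (0.0168), without vemurafenib replicate 1 (0.0281) and without PLX7904 replicate 2 (0.0487). Its 3 probe sets above the filter agreed between the compounds, at 0.60 to 0.67 on the log2 scale.

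Of 10 phosphodiesterase genes measured, 4 passed the filter (Pde1b, Pde2a, Pde3b and Pde5a), and 0 of these passed the test in any comparison. Pde5a, the cyclic GMP-specific enzyme, read 143 with DMSO, 81.0 and 106 with vemurafenib, and 116 and 93.3 with PLX7904. Its log2 difference between vemurafenib and DMSO was -0.61 (adjusted p = 0.270). Pde2a (470.2 to 515) and Pde3b (385 to 511) were brighter and differed between vemurafenib and DMSO by -0.05 and 0.02. Pde1a, Pde1c, Pde3a, Pde9a, Pde10a and Pde11a were below the filter and not tested. Among them Pde1a read 5.29 with DMSO, 42.8 and 37.8 with vemurafenib, and 30.3 and 21.3 with PLX7904. This put vemurafenib above DMSO by 2.34 on the log2 scale (95% interval 0.77 to 3.91). That interval is unadjusted and rests on a single, very dim DMSO reading. In the limma fit without the filter 16.9% of all genes had an unadjusted p under 0.05 in that comparison. Ppp1r12a, a myosin phosphatase subunit, read 2128, then 1729 and 2131, then 2149 and 2243, and did not pass (log2 -0.15, adjusted p = 0.499). Abcc5, a cyclic nucleotide exporter, read 508, then 301 and 480, then 402 and 477, and did not pass either (-0.42, adjusted p = 0.309). The subunits of the soluble cyclase, Gucy1a1, Gucy1a2 and Gucy1b1, were below the filter.

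Over the pathway as a whole, which is the ligands, enzymes and cyclic GMP genes apart from the 4 described first, 13 of 33 measured genes passed the filter. Between vemurafenib and DMSO 3 rose and 0 fell (10.6% of all genes passed), 10 did not pass, and 6 lay above 0. Without vemurafenib replicate 2 the counts were 2 higher and 2 lower, and with the replicate block 3 and 1. Between the compounds 5 were higher and 2 lower with vemurafenib (13.3% of all genes passed), and without vemurafenib replicate 2 the counts were 3 and 3. Both comparisons share the vemurafenib arrays. Brighter genes passed more often than these shares. With the filter at the 75th percentile, 1114 of 6882 genes passed between vemurafenib and DMSO and 1336 between the compounds. Of the pathway genes 10 reached that filter, and 3 and 6 of them passed. Without limma's trend of variance with signal, 0 of the 13 passed in either comparison, and the calls of Fos, Jun, Klf13, Fhl1 and Rcan1 given below ended as well.

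**Figure D4:**
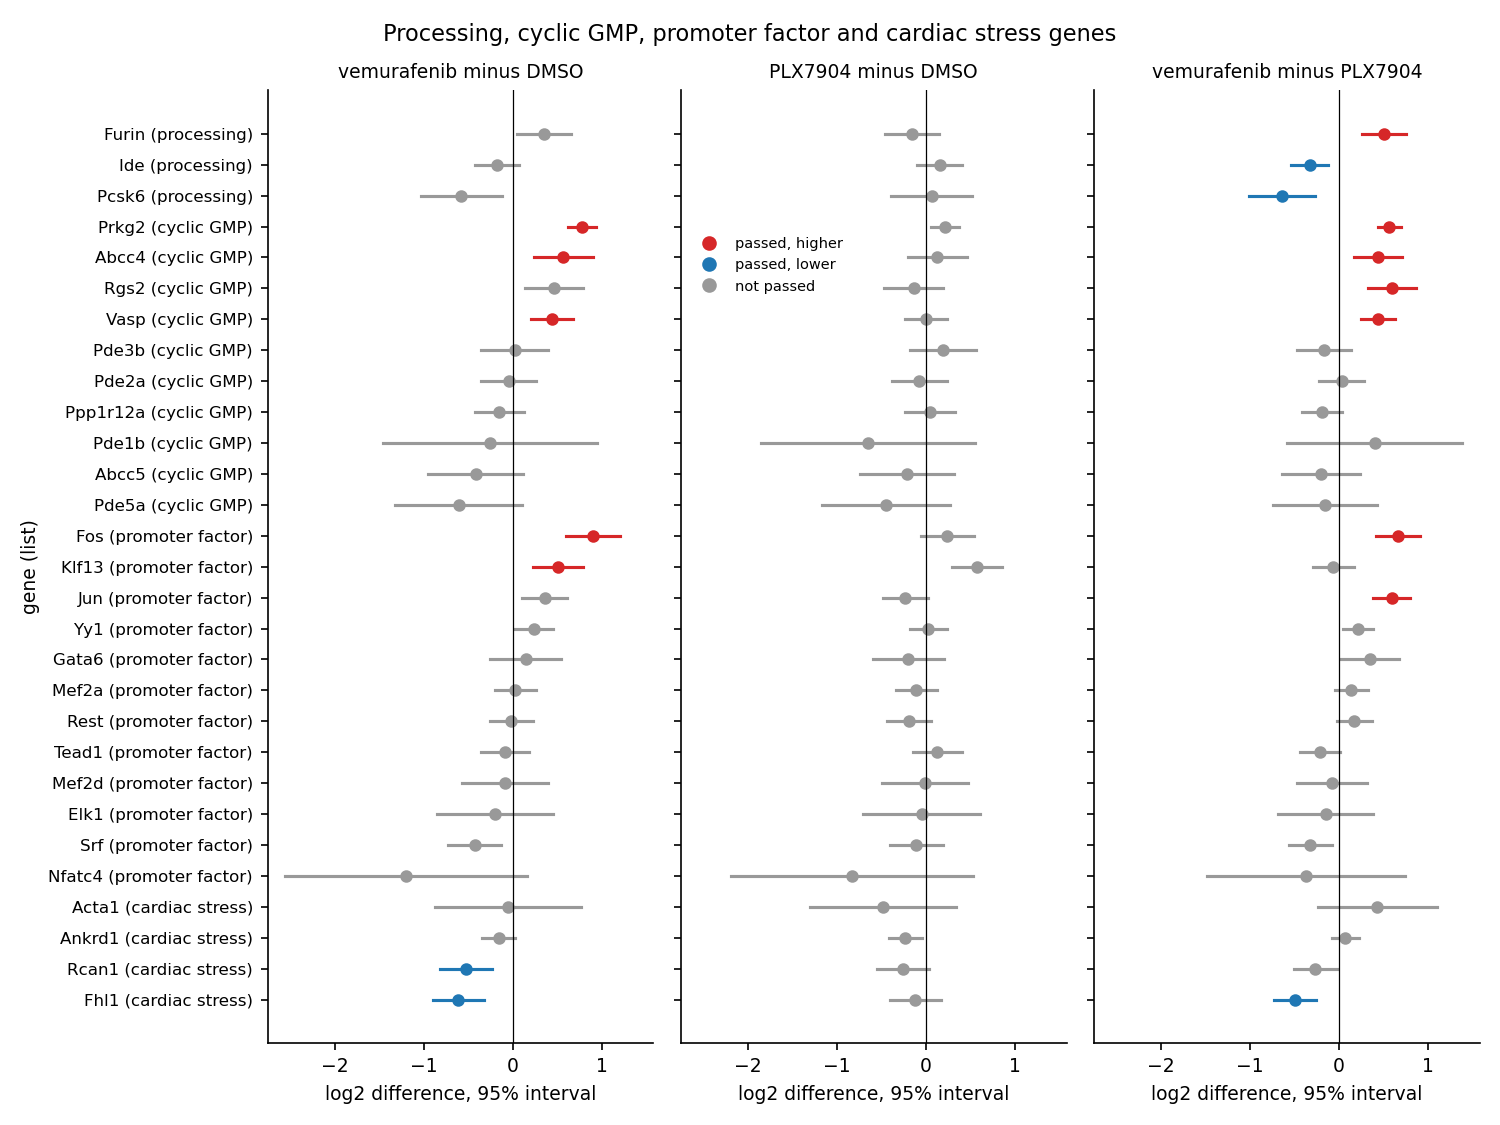
Log2 difference and 95% interval of each gene above the signal filter in 4 lists (processing enzymes, cyclic GMP genes, promoter factors, cardiac stress genes), in the 3 comparisons; red and blue mark genes that passed as higher or lower and grey those that did not. Prkg2 (0.78) and Fos (0.90) stand out on the right with vemurafenib against DMSO, and every point is grey for PLX7904 against DMSO.

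Of 16 transcription factors described for natriuretic peptide promoters, 12 passed the filter. With vemurafenib 2 rose against DMSO and 0 fell, at a median of 0.01, and between the compounds 2 were higher with vemurafenib and 0 lower. Over all genes 10.6% and 13.3% passed in these comparisons, and 2 of 12 is near both shares. Fos, a subunit of AP-1, read 677 with DMSO, 1383 and 1161 with vemurafenib, and 769 and 833 with PLX7904. It rose 1.87-fold against DMSO (95% interval 1.52 to 2.30, adjusted p = 0.00269) and was 1.58-fold higher than with PLX7904 (adjusted p = 0.00380).

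Jun, its AP-1 partner, read 1564, then 2094 and 1932, then 1418 and 1255, and was 1.51-fold higher with vemurafenib than with PLX7904 (95% interval 1.31 to 1.74, adjusted p = 0.00269). Against DMSO its difference of 0.36 did not pass (adjusted p = 0.0716), though it did with median centring (0.0271), the replicate block (0.0329), without PLX7904 replicate 1 (0.0370) and without PLX7904 replicate 2 (0.0356). A dimmer probe set of Jun gave -0.05. Klf13, a factor that binds CACCC-type boxes, read 586, then 791 and 885, then 899 and 850. It rose 1.43-fold with vemurafenib against DMSO (adjusted p = 0.0291), and its PLX7904 arrays were as high, so that the compounds differed by -0.06 (95% interval of the fold 0.816 to 1.12). The call against DMSO ended without the filter (0.0592) and without vemurafenib replicate 2 (adjusted p = 0.116), and the mean of its 3 probe sets turned the sign (log2 -0.213). Of the other Klf13 probe sets, a dim one below the filter (mean signal 27.2) gave -1.23 between vemurafenib and DMSO. The one above the filter gave 0.08. Tead1, a factor that binds M-CAT elements (1480 to 1907), Gata6 (232 to 328) and the repressor Rest (1411 to 1715) differed between vemurafenib and DMSO by -0.08, 0.15 and -0.01. Of the brighter factors that did not pass, Yy1 (4949 to 6240) differed by 0.24 (adjusted p = 0.140) and Mef2a (2121 to 2522) by 0.03. Srf, which binds CArG boxes, read 671 with DMSO, 486 and 511 with vemurafenib, and 645 and 602 with PLX7904. The difference of -0.43 between vemurafenib and DMSO (SE 0.13) did not pass (adjusted p = 0.0686). Nfatc4, a calcineurin-dependent factor, was dim and differed by -1.20 (SE 0.61, adjusted p = 0.251), and Mef2d and Elk1 by -0.09 and -0.20. Gata4, Nkx2-5, Tbx5 and Mef2c were below the filter.

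Genes that rise with Nppb in the stressed heart were also listed. Of 7 measured, 4 passed the filter, and 0 rose and 2 fell with vemurafenib against DMSO, where 5.43% of all genes rose and 5.21% fell. Ankrd1, a stretch-responsive cofactor gene that is bright in these cells, read 4950 with DMSO, 4554 and 4321 with vemurafenib, and 4315 and 4132 with PLX7904, and did not pass (log2 -0.16, adjusted p = 0.270). Fhl1, a LIM domain protein gene, read 1013, then 617 and 710, then 936 and 931. It was 1.53 times lower with vemurafenib than with DMSO (log2 -0.61, SE 0.13, adjusted p = 0.0142), a call that ended without vemurafenib replicate 1 (adjusted p = 0.0504), with median centring (0.0657) and with the mean of its 2 probe sets (0.440). Between the compounds Fhl1 was 1.41 times lower with vemurafenib (log2 -0.49, adjusted p = 0.0121). That call ended without vemurafenib replicate 1 (adjusted p = 0.0920) and with median centring (0.0740), and the mean of both probe sets turned its sign (log2 0.048). The other Fhl1 probe set was below the filter (mean signal 22.8). It gave -0.41 between vemurafenib and DMSO and 0.59 between the compounds. Rcan1, a calcineurin inhibitor, read 976 with DMSO, 640 and 720 with vemurafenib, and 781 and 854 with PLX7904. It was 1.44 times lower (log2 -0.52, adjusted p = 0.0308), a call that ended under quantile normalization (adjusted p = 0.0545), under cyclic loess (0.0552), with the mean of both probe sets (0.707), with median centring (0.149), without the filter (0.0650) and without vemurafenib replicate 1 (0.121). A dimmer Rcan1 probe set (mean signal 90.1) gave 0.11. Acta1, skeletal actin, did not pass, and Nppa, Myh7 and Actc1 were below the filter.

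The genes whose profile over the 5 arrays was most like that of Nppb were ranked by the root mean square difference of their log2 values, each profile centred on the mean of its 3 group means, over 5 arrays and 10851 genes. The nearest was Cpa4, a carboxypeptidase, at 0.06, where the median gene lay at 0.94. It read 65.1 with DMSO, 314 and 295 with vemurafenib, and 81.7 and 92.8 with PLX7904. The next was Dusp5, a nuclear phosphatase of ERK, at 0.07, with 720, then 2773 and 2893, then 957 and 897.

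Evi2a (0.07; 4.14-fold between vemurafenib and DMSO), Sdcbp2, a PDZ protein gene (0.08; 3.94-fold), Nipal1, a magnesium transporter gene (0.08; 3.59-fold), and Ifi209, of the interferon-inducible p200 family (0.10; 3.52-fold), followed. Ifi202b, of the same family (0.15; 3.24-fold), and Mmp10, a stromelysin (0.16; 3.38-fold), completed the 8. In each of the 8 both vemurafenib arrays were at least 1.65 above DMSO on the log2 scale, and the PLX7904 arrays lay between -0.01 and 0.51. Other probe sets of these genes read less: a further Ifi209 probe set gave 1.13 between vemurafenib and DMSO, a further Nipal1 one 1.55, and a dim Evi2a one 0.14. Averaged over both of its probe sets, the dim one included, Evi2a differed by 1.096 (SE 0.61). The likeness was found on the same arrays that chose Nppb and is a description.

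**Figure D5:**
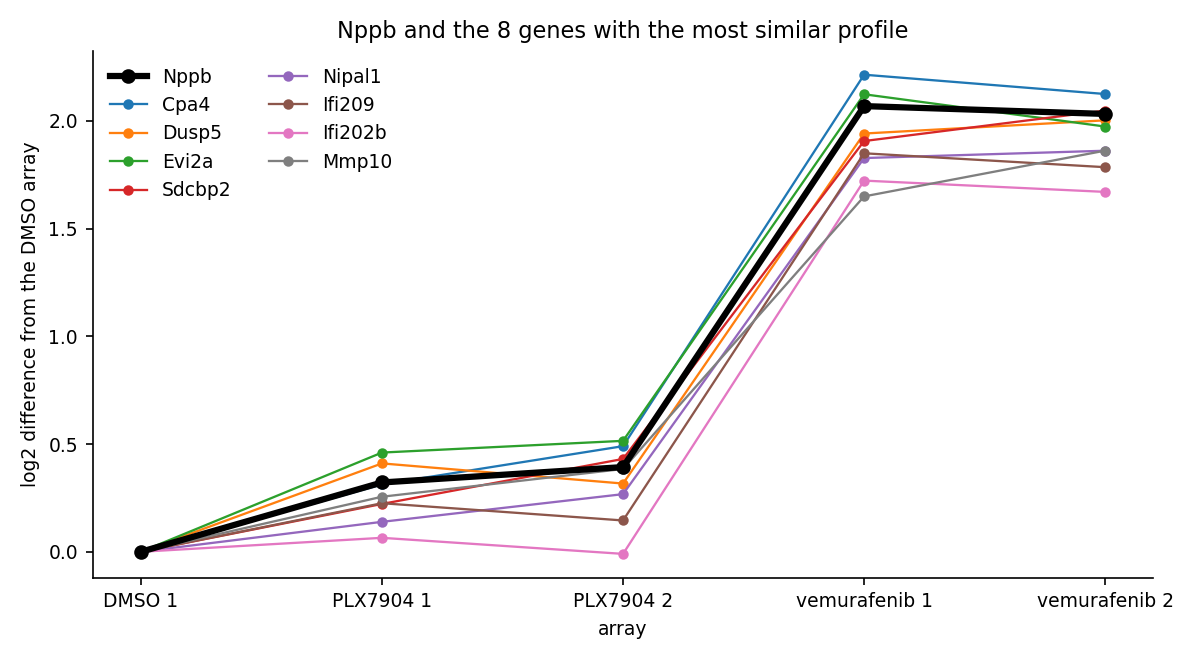
Log2 difference from the DMSO array on each of the 5 arrays for Nppb (black) and the 8 genes with the most similar profile; lines join the points of a gene and carry no order. Nppb reads 0.32 and 0.39 on the PLX7904 arrays and 2.07 and 2.03 on the vemurafenib arrays.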

How the data were processed

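The data were 5 Affymetrix 3' arrays of B9 cells. The authors deposited 1 intensity per probe set and array on a linear scale, made with MAS5 per the submitters' processing notes (version not given in the sources used here); the 2% trimmed mean of every array was 500. The median signal of an array was 44.1 to 51.9, no detection calls were used, and the number of arrays limits the precision. Probe sets were named from the platform annotation: 34945 had 1 gene symbol, 932 several and 9160 none. A gene was represented by its brightest probe set, by the mean over 3 group means.

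Log2 of signal plus a pseudocount of 3.34 (10th percentile of all signals) was analysed in R 4.3.3 with limma 3.58.1, using 3 group means, moderated variances with an intensity trend, and 2 residual and 8.27 prior degrees of freedom. Tested were the 10852 genes whose mean signal reached 47.4, the overall median. Fold changes on this scale understate changes of dim genes. Tests were two-sided with Benjamini-Hochberg adjustment over all genes tested, and a gene passed under 0.05. Genes below the filter have differences from the same fit over all 18193 genes. Data were simulated with 2-fold and 4-fold changes (1 and 2 on the log2 scale). This fit recovered 74% and 91% of changed genes between vemurafenib and DMSO, with 6 false calls. The simulated noise was drawn with the variances of this same fit, so these shares do not test its variance trend. Named were all probe sets of the 4 genes, all ligands and enzymes, listed genes that passed with up to 3 others per list by brightness, the 5 genes on either side of Nppb and the 8 nearest profiles. Further listed genes and markers that did not pass, or were below the filter, were named after their values were seen. The genes and lists were chosen with earlier results of these data known. Ostn, Cnga3, Xirp2 and Dsg3 had no probe set used here. Alternatives covered pseudocount, filter, normalization, variance trend, choice of probe sets, a block for the replicate number and each treated array left out. Promoters came from RefSeq (GRCm38.p6). Figures used Python 3.11.15 and matplotlib 3.10.9.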

Additional observations from a re-analysis of the deposited data

How the results depend on the processing

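Nppb kept its direction under all 15 alternatives in each comparison: 1.995 to 2.2 on the log2 scale between vemurafenib and DMSO, 0.318 to 0.393 between PLX7904 and DMSO and 1.634 to 1.839 between the compounds. It moved by more than the spread between replicates (SD 0.04) with quantile normalization (2.008 against DMSO, 1.634 between the compounds), cyclic loess (1.995 against DMSO) and median centring (2.2 and 1.839); the cause was not tested. Median centring shifted the median of all genes from -0.05 to 0.10 between vemurafenib and DMSO and from -0.04 to 0.11 between the compounds, and the share of calls that were higher from 51% to 77.7% and from 48.4% to 80%.

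Of the 13 pathway genes, 3 passed between vemurafenib and DMSO and 7 between the compounds. Without the variance trend these counts were 0 and 0, without the filter the second was 4 and with the mean of all probe sets 2, and with 1 array left out they were 3 to 4 and 4 to 6 (2 higher and 2 lower, and 3 and 3, without vemurafenib replicate 2). Over all genes, 1154 passed between vemurafenib and DMSO, 1443 between the compounds and 0 between PLX7904 and DMSO. Without the variance trend the first and second were 43 and 35, with the mean of all probe sets 443 and 661, and without the filter the first was 657. With 1 array left out the 3 counts were 880 to 1507, 900 to 1288 and 0 to 29; the second was 900 without vemurafenib replicate 1, and the third was 29 and 27 without vemurafenib replicate 1 and 2. The third was 3 with the filter at the 75th percentile, 5 with median centring, 3 without probe sets of suffix x, s or a and 4 with the replicate block. With the mean of all probe sets Klf13 turned to -0.213 between vemurafenib and DMSO and Fhl1 to 0.048 between the compounds. In both genes the probe set of opposite sign was below the filter.

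Replicate numbers did not pair the arrays: deviations of same-numbered vemurafenib and PLX7904 arrays correlated at r = -0.007 over genes. The replicate block gave 1211, 4 and 1583 genes for vemurafenib against DMSO, PLX7904 against DMSO and the compounds. The receptors entered a test only without the filter, with 0 calls. Leaving out 1 array also made calls for genes that did not pass with all 5: Abcc5 between vemurafenib and DMSO (log2 -0.749) and between the compounds (-0.537) without vemurafenib replicate 2, Tead1 between the compounds without PLX7904 replicate 1 (-0.349), and Yy1 against DMSO without PLX7904 replicate 1 and again without PLX7904 replicate 2 (0.242 each) and between the compounds without PLX7904 replicate 2 (0.318). Dim signals limit the receptors, with standard errors of 0.48 to 0.72 on the log2 scale.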
